A study of Mus musculus with 8 samples.

Results

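The 10 genes described here are 4 simple-epithelial keratins, Krt7, Krt8, Krt18 and Krt19, and 6 transcription factors of the trophoblast, Cdx2, Gata2, Gata3, Tfap2c, Elf5 and Hand1. They were taken by name from a table of 37797 genes measured in mouse embryonic stem cells, by a rule that uses no measured value, although the list itself was drawn up with earlier results of these data known. All 10 were found in the table, and 7 of them reached the minimum signal used for testing, a normalised read count of at least 10 in at least 2 of 8 libraries, which 20660 genes reached. Cdx2, Elf5 and Hand1 stayed below it and are given as values.

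Keratins are intermediate filament proteins that assemble as pairs of a type I and a type II chain. Krt7 and Krt8 are type II chains, Krt18 and Krt19 are type I chains, and Krt8 with Krt18 is the pair that appears earliest in the mouse embryo, in the trophectoderm. The trophectoderm is the outer layer of the blastocyst that founds the trophoblast of the placenta, whereas embryonic stem cells come from the inner cell mass. Cdx2, Gata3, Tfap2c and Elf5 act in setting up or keeping the trophoblast fate, Gata2 works in placental trophoblast, and Hand1 drives trophoblast giant cell differentiation. Keratins and several of these factors can be transcribed at low levels in embryonic stem cell cultures.

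The cells were male mouse embryonic stem cells derived from 129 mice and grown without feeder cells in serum with LIF, a cytokine that maintains pluripotency. All groups carried a conditional knockout of Ythdc1, a nuclear reader of the RNA modification m6A, and differed in whether 4-hydroxytamoxifen (4OHT), which triggers deletion in inducible knockout lines, was given at 1 μg/ml or its solvent DMSO, in either case for 4 days. The DMSO groups are therefore cells of the same conditional genotype without the inducing agent, and not wild-type cells. Transcription by RNA polymerase II was blocked with DRB at 100 μM for 3 h, the block was washed out, and new RNA was tagged with 1 mM 4-thiouridine (4sU) for 8 or 0 min and purified over streptavidin. The 4 groups were 4OHT with 8 min of label, DMSO with 8 min of label, 4OHT with 0 min of label and DMSO with 0 min of label, with 2 libraries each. The 0 min groups had no labelling time and give the signal that the purification retains without it. In the titles stem cell number 2 goes with 8 min and number 1 with 0 min, but column names of the table use 1 and 2 at either time. By the titles, an effect of labelling time cannot be told apart from one of the cell line, whereas the column names would put both lines at both times, and the sources used here do not settle which holds. The promoter driving the recombinase is not given in the sources used here.

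Krt7, Krt8 and Krt18 lie in the type II keratin region of chromosome 15, Krt18 being the type I gene that sits there. The annotated spans of Krt8 and Krt18 were 23873 bases apart, with the long noncoding genes Gm36026 and Gm41404 annotated between them. Krt7 ended 568904 bases before the span of Krt8. Krt19 lies in the type I keratin region of chromosome 11, at 100140810 to 100145926. In GRCm38.p6 the annotated spans on chromosome 15 are 101412403 to 101427806 for Krt7, 101996711 to 102004342 for Krt8 and 102028216 to 102032026 for Krt18. The RefSeq promoter windows of the chromosome 15 keratins run from 250 bases before to 50 bases after the annotated start. These windows were picked because Krt8 and Krt18, which lie near each other, were lower in 4OHT after the scaling described below, while Krt7 was higher. They are written 5′ to 3′ on the gene's strand, with matches to the motifs searched in capitals: Krt7 at chr15:101412153-101412452 on the plus strand, Krt8 at chr15:102004293-102004592 on the minus strand and Krt18 at chr15:102027966-102028265 on the plus strand.
Krt7: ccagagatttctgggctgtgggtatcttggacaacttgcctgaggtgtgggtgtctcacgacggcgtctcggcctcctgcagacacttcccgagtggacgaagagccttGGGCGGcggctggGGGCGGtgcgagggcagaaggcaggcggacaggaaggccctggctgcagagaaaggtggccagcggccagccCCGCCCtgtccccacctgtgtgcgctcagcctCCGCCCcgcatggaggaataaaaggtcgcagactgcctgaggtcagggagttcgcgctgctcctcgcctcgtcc
Krt8: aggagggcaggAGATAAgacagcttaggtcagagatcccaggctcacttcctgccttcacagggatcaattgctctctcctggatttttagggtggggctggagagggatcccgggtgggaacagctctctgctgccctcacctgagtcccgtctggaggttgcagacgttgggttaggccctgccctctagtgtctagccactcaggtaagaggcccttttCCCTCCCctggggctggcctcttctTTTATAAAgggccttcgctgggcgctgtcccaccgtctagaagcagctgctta
Krt18: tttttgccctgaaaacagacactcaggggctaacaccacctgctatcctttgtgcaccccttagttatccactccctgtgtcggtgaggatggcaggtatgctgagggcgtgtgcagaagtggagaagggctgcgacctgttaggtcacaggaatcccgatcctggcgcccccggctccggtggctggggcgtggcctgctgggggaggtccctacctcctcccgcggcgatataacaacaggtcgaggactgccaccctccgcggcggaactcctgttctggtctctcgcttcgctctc

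The motifs searched on both strands were TATAAA, found near many start sites, the Sp1 core GGGCGG, the AP-1 site TGANTCA, the zinc-finger factor site AGATAA, and the purine run GGGAGGG. The Krt7 window held 4 matches to GGGCGG, at −141, −128, −56 and −24 relative to the start, the 2 nearest the start on the opposite strand. The Krt8 window held AGATAA at −239, GGGAGGG on the opposite strand at −28, and TATAAA at −1, overlapping a match on the opposite strand at −3. The Krt18 window held none of these letters. GGGCGG also stood in the Gata2 windows, at −131 in window 1 and at −74, −63 and 30 in window 2. The Gata3 window held it at −188 and −176, and neither Gata2 nor Gata3 was called after scaling. Whether these matches bear on any change was not tested. Of 32851 windows of the same length, 35.7% held GGGCGG, 22.0% GGGAGGG, 13.6% TATAAA, 11.2% AGATAA and 7.81% TGANTCA. Windows were found for 7 of the 10 genes, with none for Krt19, Tfap2c and Hand1, and those of Cdx2, Gata2, Gata3 and Elf5 are not shown.

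Sequencing depth was 118 and 134 M (mega) recovered reads in 4OHT and 112 and 93.1 M in DMSO at 8 min, and 58.3 and 57.6 M in 4OHT and 61.4 and 46.3 M in DMSO at 0 min. Ythdc1 itself had 2696 and 5168 normalised read counts in 4OHT, against 1409 and 2708 in DMSO at 8 min, and its change was 0.93 on the log2 scale (adjusted p = 0.174), so the whole-gene signal showed no loss on the deposited scale. Whether the deleted exons are among the counted ones is not given in the sources used here. After scaling, described below, it fell by 0.51 (adjusted p = 0.0016). Stem cell identity was checked with Pou5f1, Sox2, Nanog and 7 other embryonic stem cell markers: all 10 passed the minimum, and their summed signal was 6813 to 11412 in 4OHT and 2840 to 4257 in DMSO at 8 min. The summed signal of the 10 keratins and trophoblast factors was 158 to 320 in 4OHT and 97.8 to 174 in DMSO at 8 min. The libraries are therefore of cells with stem cell markers and a low keratin and trophoblast factor signal. These are bulk samples, in which fewer cells of a type and less RNA per cell cannot be told apart. The labels do not say that libraries of a group came from separate cultures, so that p-values cover only the spread seen between these samples, and that spread may be technical.

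Most genes shifted together on the scale of the deposited values. At 8 min the median gene was 1.43 higher in 4OHT than in DMSO on the log2 scale, and 56.7% of all genes tested were called higher and 0.126% lower (limma, adjusted p under 0.05). The comparison was therefore also made after dividing each of the 4 libraries by a median-ratio factor, which put the median gene at 0.03. On that scale 20.1% of genes were called higher and 15.4% lower. A fold change on the scaled values says how a gene moved relative to the other genes, and one on the deposited values keeps the common shift. Fold changes are of log2(value + 1), which understates the change of low genes. How many of all genes had groups without overlap was not counted on either scale.

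Of the 7 tested genes, 2 were higher in 4OHT at 8 min on the deposited scale, Krt7 and Gata3, and none was lower. Relative to other genes, 4 were lower, Krt8, Krt18, Krt19 and Tfap2c, and Krt7 alone was higher. Thus 3 of the 4 keratins fell relative to the other genes and the remaining keratin rose. On the deposited scale the means of the 3 that fell were lower at 8 min than at 0 min in both treatments. For Krt18 they were 30.9 in 4OHT and 24.4 in DMSO at 8 min, against 64.2 and 55.8 at 0 min. For Krt19 they were 31.1 and 35.4 at 8 min, against 41.0 and 39.2. These falls are therefore of a signal not above the one retained without labelling time. The median of the 7 genes was −0.57 after scaling, against 0.03 for all genes, and 0.83 on the deposited scale, against 1.43 for all genes. The calls after scaling were absent from the fit without a minimum on low values, which called 0 genes in the whole table, and from a fit of all 8 libraries after joint scaling, in which 0 of the 7 were called.

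**Figure D1:**
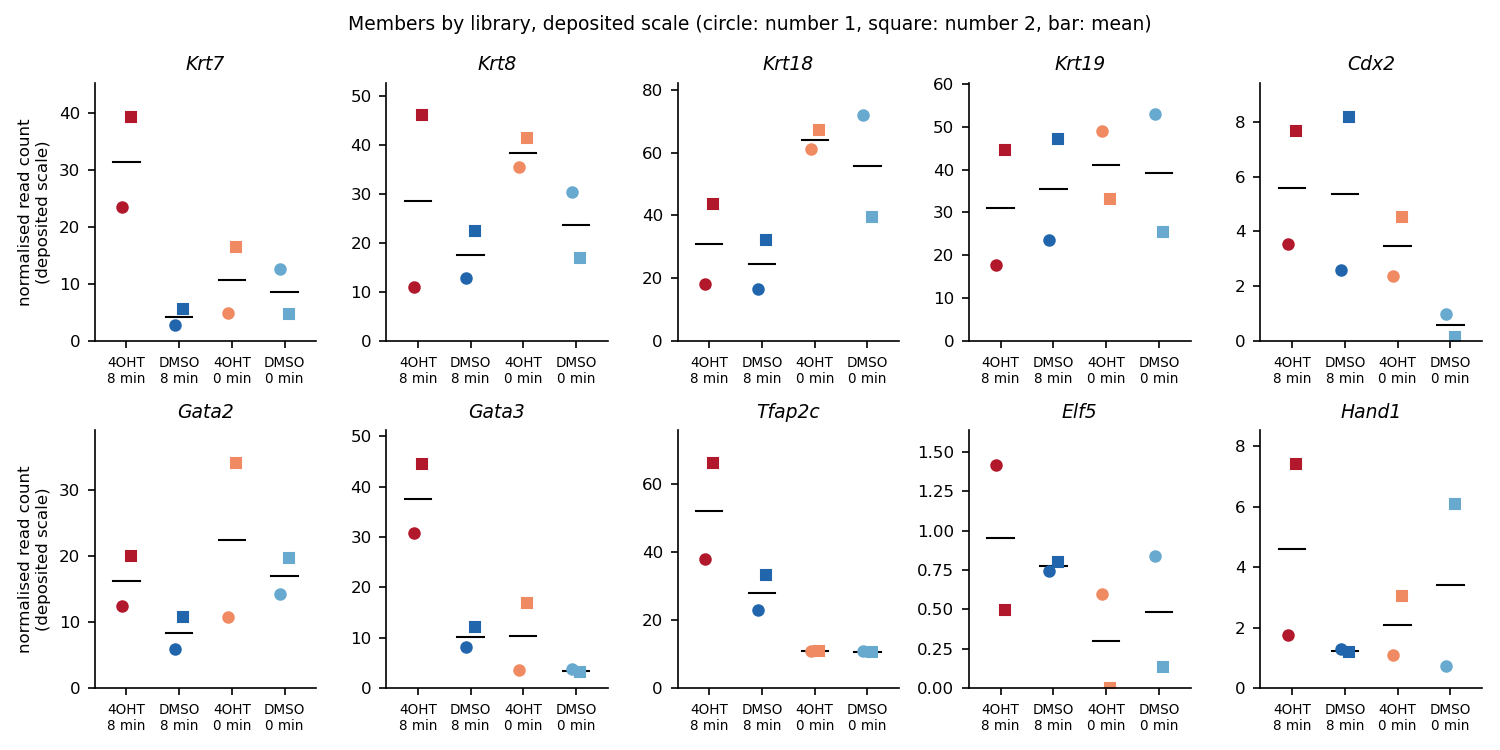
Normalised read count (deposited scale, linear axis from 0) of the 10 genes in each of 8 libraries, by group, with the bar at the mean of 2 libraries. Krt7, Gata2, Gata3, Tfap2c and Hand1, the last near the floor, have both 4OHT libraries above both DMSO libraries at 8 min. The median of all genes was 1.43 higher in 4OHT there on the log2 scale. Krt8, Krt18 and Krt19 overlap at 8 min, and their means are higher at 0 min in either treatment.

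Krt19, the type I keratin without a fixed partner, had the largest fall of the 4 keratins relative to other genes. Its normalised read count was 17.7 and 44.6 in 4OHT, against 23.7 and 47.1 in DMSO at 8 min, and these ranges overlapped. After scaling it was 13.5 and 21.2 in 4OHT, against 48.4 and 61.6 in DMSO, with both 4OHT libraries well below both DMSO libraries. The log2 fold change was −1.63 ± 0.24 (SE; adjusted p = 1.8e-05) after scaling and −0.24 ± 0.61 (adjusted p = 0.713) on the deposited scale. It lay at percentile 1.15 of the scaled changes of all genes, counted from the lowest. Leaving out any 1 of the 4 libraries kept it between −1.92 and −1.31.

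Krt18, the type I partner of Krt8, had 18.1 and 43.7 in 4OHT, against 16.7 and 32.1 in DMSO at 8 min, again overlapping. After scaling the values were 13.8 and 20.8 in 4OHT, against 34.1 and 42.0 in DMSO, and did not overlap. The change was −1.11 ± 0.25 (SE; adjusted p = 0.00149) after scaling, whereas the deposited values gave 0.27 ± 0.61 (adjusted p = 0.673), in the opposite direction.

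Krt8, the type II partner of Krt18, varied widely between the 4OHT libraries. Its normalised read count was 11.2 and 46.2 in 4OHT, against 12.9 and 22.5 in DMSO at 8 min, so that the 4OHT libraries held both the lowest and the highest value. After scaling it was 8.50 and 22.0 in 4OHT, against 26.3 and 29.4 in DMSO, with no overlap but an SD of 9.55 in 4OHT. The scaled change was −0.96 ± 0.32 (SE; adjusted p = 0.0222), and the deposited one was 0.41 ± 0.62 (adjusted p = 0.530), in the opposite direction. The scaled call was lost with edgeR (adjusted p = 0.0534) and DESeq2 (adjusted p = 0.0659) on recovered reads and with quantile normalization (adjusted p = 0.0602). Without the 4OHT library of number 1 the change was −0.32 (adjusted p = 0.536).

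Reads of Krt8 may also be shared with its processed pseudogene entry Krt8-ps on chromosome 7, since how multi-mapping reads were assigned is not given in the sources used here. Krt8-ps carried 70.1 and 214 in 4OHT, against 59.5 and 95.9 in DMSO at 8 min, and 179 and 188 in 4OHT, against 192 and 157 in DMSO at 0 min. In each of the 8 libraries this was 4.27 to 9.24 times the value listed for Krt8, so most of the signal carrying this gene's name stood under the pseudogene. Krt8-ps was lower in 4OHT at 8 min after scaling (−0.73; adjusted p = 0.00703). The sum of both entries was also lower (−0.78; adjusted p = 0.00483), an alternative chosen after the data were seen. On the deposited scale the sum changed by 0.65 (adjusted p = 0.306).

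**Figure D2:**
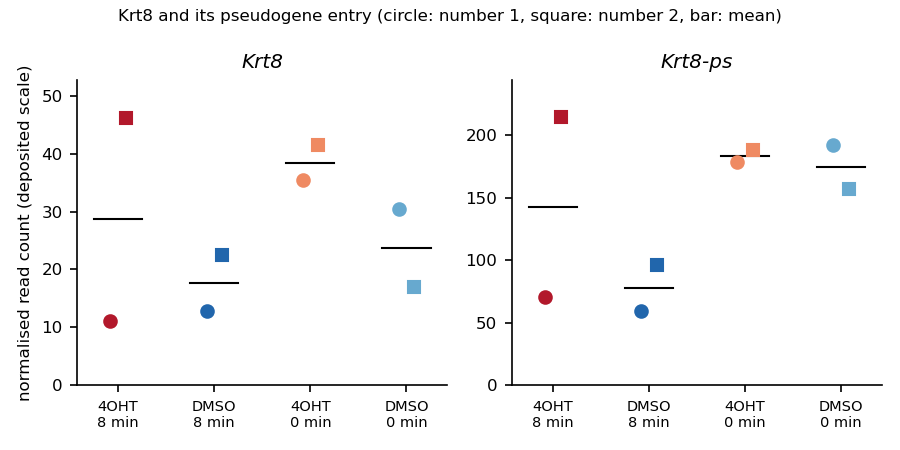
Normalised read count (deposited scale, linear axes from 0, different ranges) of Krt8 and of Krt8-ps in each library, with the bar at the mean of 2 libraries. Krt8-ps spans 59.5 to 214 and Krt8 11.2 to 46.2, and in both panels the 4OHT libraries at 8 min are the most widely spread.

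Krt7, the type II keratin of ducts and trophoblast, was called higher in 4OHT at 8 min on both scales, and after scaling its direction was opposite to that of the other 3 keratins. It had 23.5 and 39.3 in 4OHT, against 2.78 and 5.62 in DMSO at 8 min, and the groups lay far apart. After scaling it had 18.0 and 18.7 in 4OHT, against 5.68 and 7.35 in DMSO. The change was 2.65 ± 0.64 (SE; adjusted p = 0.00117) on the deposited scale, 1.22 above the median gene, and 1.37 ± 0.33 (adjusted p = 0.00222) after scaling, which lay at percentile 97.7 of all genes. The reads behind it numbered 266 and 318 in 4OHT and 82 and 84 in DMSO at 8 min. On the deposited scale the call was lost without the 4OHT library of number 2 or without the DMSO library of number 1, where 0 of the 7 genes were called. After scaling it held in each of the 4 fits that left out a library, at 1.23 to 1.54 (adjusted p of 0.00069 to 0.0285).

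Among the factors, Gata3, a zinc-finger factor that promotes trophoblast fate, had 30.8 and 44.5 in 4OHT, against 8.27 and 12.2 in DMSO at 8 min. Both 4OHT libraries were above both DMSO libraries, and the deposited change was 1.78 ± 0.64 (SE; adjusted p = 0.0188), 0.35 above the median gene. After scaling, the values were 23.5 and 21.2 in 4OHT, against 16.9 and 15.9 in DMSO, and the change of 0.42 ± 0.26 did not pass the test (adjusted p = 0.221). The deposited call was lost in the fit without a minimum (adjusted p = 0.0763), which kept Krt7. The overlapping long noncoding genes 4930412O13Rik and 9230102O04Rik had at most 2.66 and 3.06 in any library.

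Tfap2c, the AP-2 gamma factor found in both trophoblast and germ cells, had 37.9 and 66.2 in 4OHT, against 23.0 and 33.4 in DMSO at 8 min. After scaling the order turned round, with 28.9 and 31.6 in 4OHT, against 46.9 and 43.7 in DMSO and no overlap on either scale. The scaled change was −0.57 ± 0.21 (SE; adjusted p = 0.0342), and the deposited one was 0.83 ± 0.62 (adjusted p = 0.208). The scaled call was lost without the 4OHT library of number 1 (adjusted p = 0.190), without that of number 2 (adjusted p = 0.0794) and without the DMSO library of number 1 (adjusted p = 0.0976).

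Gata2, the GATA factor of placental trophoblast and blood, did not pass the test on either scale. Its normalised read count was 12.4 and 20.0 in 4OHT, against 6.0 and 10.8 in DMSO at 8 min. The 4OHT libraries were the higher pair here, and after scaling the lower pair, with 9.45 and 9.54 in 4OHT, against 12.3 and 14.2 in DMSO. The changes were 0.88 ± 0.63 (SE; adjusted p = 0.189) on the deposited scale and −0.44 ± 0.32 (adjusted p = 0.309) after scaling. The noncoding gene Gm38708, which overlaps Gata2, had at most 0.323 in any library.

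Cdx2, Elf5 and Hand1 were near the floor of the table. Cdx2, the homeobox factor of the trophectoderm, had 3.54 and 7.66 in 4OHT, against 2.58 and 8.16 in DMSO at 8 min, ranges that overlap, and the reads behind them numbered 40 and 62 in 4OHT and 76 and 122 in DMSO. After scaling it had 2.7 and 3.65 in 4OHT, against 5.27 and 10.7 in DMSO at 8 min, without overlap, and a change of −1.04 in the fit without a minimum (adjusted p = 0.248). At 0 min it had 2.39 and 4.51 in 4OHT, against 1.00 and 0.136 in DMSO, the last resting on 2 reads. In the fit without a minimum its 0 min change was 1.52 (unadjusted p = 0.0422 by limma, adjusted p = 1), and its 8 against 0 min change in DMSO was 1.92 (adjusted p = 0.0537), neither past the test. Elf5, an ETS factor of the trophoblast stem cell compartment, stayed between 0 and 1.42 in all 8 libraries, and its reads numbered 16 and 4 in 4OHT and 22 and 12 in DMSO at 8 min. Hand1, a basic helix-loop-helix factor, had 1.77 and 7.41 in 4OHT, against 1.29 and 1.20 in DMSO at 8 min, and 1.11 and 3.06 in 4OHT, against 0.753 and 6.10 in DMSO at 0 min. The scaled changes at 8 min were −0.51 for Elf5 (adjusted p = 0.436) and 0.09 for Hand1 (adjusted p = 0.929), with overlapping groups. None of the 3 genes passed a test in the fits without a minimum.

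**Figure D3:**
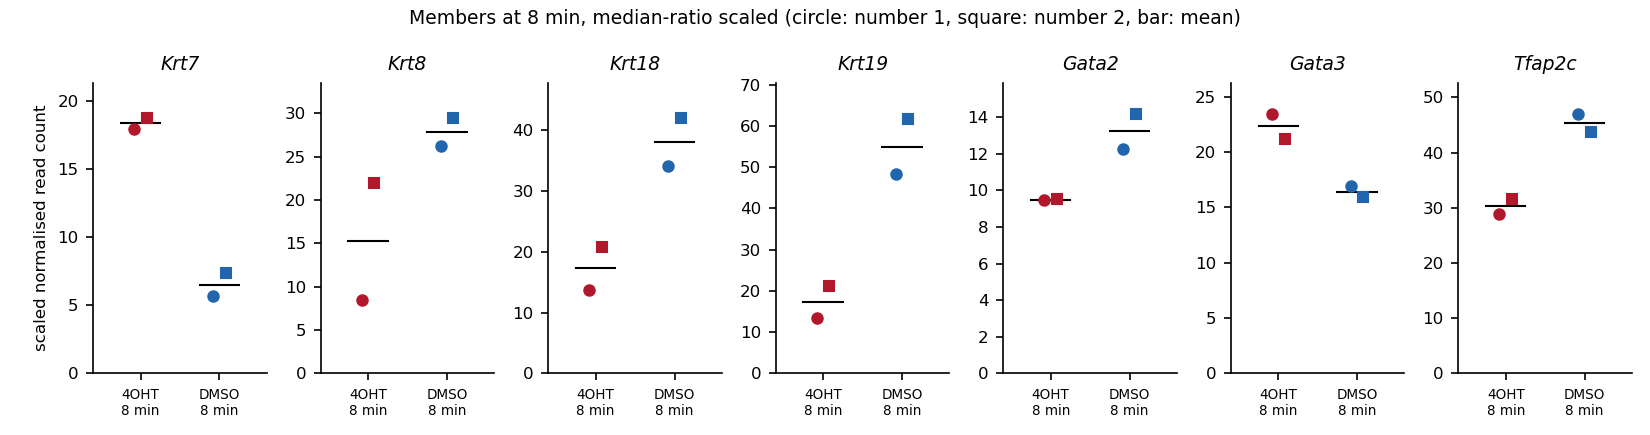
Normalised read count at 8 min after median-ratio scaling of the 4 libraries (linear axes from 0), with the bar at the mean of 2 libraries. Krt8, Krt18, Krt19, Gata2 and Tfap2c have both 4OHT libraries below both DMSO libraries, and Krt7 and Gata3 have both above. On the deposited scale Gata2 and Tfap2c lie the other way and Krt8, Krt18 and Krt19 overlap. The share of all genes without overlap was not counted.

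Without labelling time, none of the 7 genes differed between 4OHT and DMSO by the test. At 0 min limma called 0 genes in the whole table on the deposited scale, 0% higher and 0% lower, and 0 after scaling, and none of the 7 had an unadjusted p under 0.05 on either scale. On recovered reads edgeR and DESeq2 called 0 of the 7 as well. Krt18 had 61.2 and 67.1 in 4OHT, against 72.0 and 39.6 in DMSO at 0 min, and Krt19 had 49.0 and 33.1 in 4OHT, against 53.0 and 25.5 in DMSO. For both keratins the 4OHT libraries lay inside the range of the DMSO libraries. Krt8 had 35.5 and 41.4 in 4OHT, against 30.4 and 16.9 in DMSO, where the 4OHT pair was the higher, with a change of 0.73 ± 0.62 (SE; adjusted p = 1). Krt7 had 4.95 and 16.4 in 4OHT, against 12.6 and 4.74 in DMSO, with overlap. Gata3 had 3.67 and 16.9 in 4OHT, against 3.77 and 3.25 in DMSO, so its mean in 4OHT rested on 1 library. Tfap2c varied least, with 10.8 and 11 in 4OHT, against 10.9 and 10.7 in DMSO. Gata2 had 10.8 and 34.0 in 4OHT, against 14.3 and 19.7 in DMSO, the 4OHT libraries holding both extremes.

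Whether the 4OHT effect differed between the labelling times was tested as the difference of the 8 and 0 min effects on the deposited scale, for which 0.382% of all genes were called higher and 0% lower and the median gene had 1.15. None of the 7 genes passed this test without a block for the library number. Krt7 came nearest, with a difference of 2.45 ± 0.90 (SE; adjusted p = 0.191), and was the only one of the 7 with an unadjusted p under 0.05 (0.00682 by limma). It passed with the library number of the column names as a block (2.45; adjusted p = 0.0266), a fit that called 6410 genes higher, against 79 without the block, and it passed without the 4OHT library of number 2 at 0 min, the one with 16.4. Krt8, Krt18 and Krt19 had differences of −0.32, 0.01 and −0.36, each below the median gene, at percentiles 2.57, 5.10 and 2.33. Krt8, Krt18 and Krt19 were called at 8 min on the scaled values and not on this scale. After joint scaling of all 8 libraries their differences were −1.41, −1.09 and −1.47, and that of Krt7 was 1.33, with 0 genes of the whole table called (adjusted p of the 4 keratins 0.854 to 0.881).

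**Figure D4:**
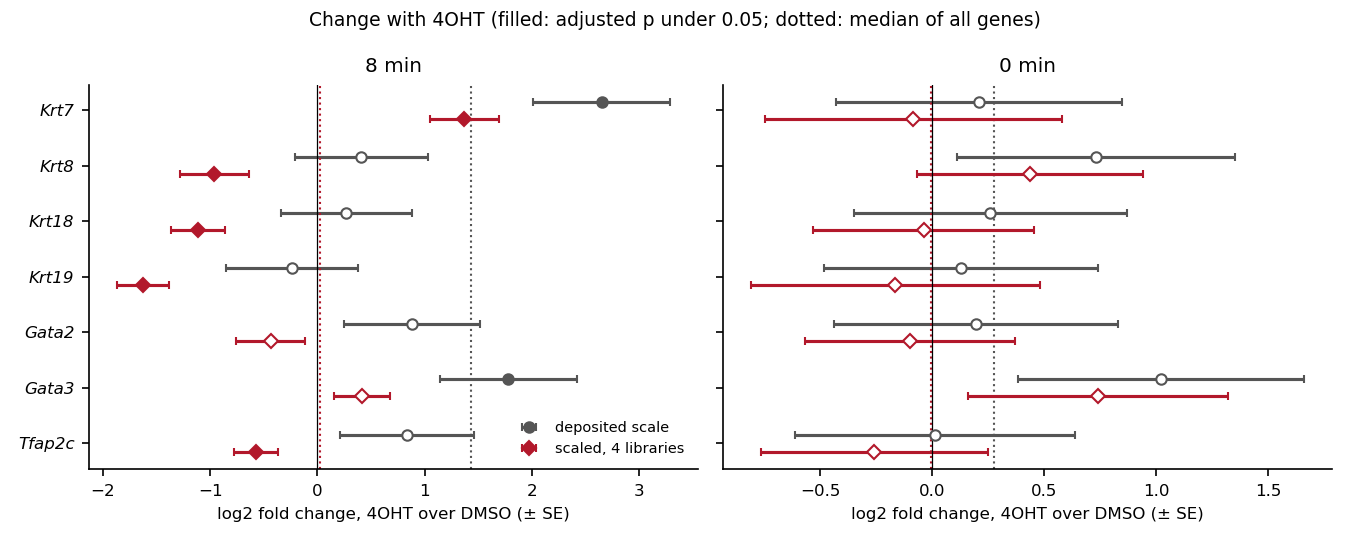
Log2 fold change of 4OHT over DMSO, with SE bars, for the 7 tested genes at 8 min (left) and 0 min (right), on the deposited scale (circles, 8 libraries in the fit) and after scaling (diamonds, 4 libraries in the fit). Filled symbols passed an adjusted p of 0.05 and dotted lines mark the median of all genes; at 8 min Krt8, Krt18, Gata2 and Tfap2c lie right of 0 on the deposited scale and left of 0 after scaling, and no symbol is filled at 0 min.

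Krt8, Krt18 and Krt19 had lower fitted values at 8 min than at 0 min in both 4OHT and DMSO on the deposited scale, none past the test, while Krt7 was called higher at 8 min in 4OHT and had a value below 0 in DMSO. Within 4OHT, 73.8% of all genes were called higher at 8 min than at 0 min, 0.808% were called lower, and the median gene gained 2.49 on the log2 scale of the deposited values. Of the 7 genes, 3 were called higher, Tfap2c (2.10; adjusted p = 0.00128), Gata3 (2.06; adjusted p = 0.0021) and Krt7 (1.63; adjusted p = 0.0158), and each gained less than the median gene. Krt18 had −1.16 ± 0.61 (SE; adjusted p = 0.0752), Krt8 −0.72, Krt19 −0.50 and Gata2 −0.28, none past the test, at percentiles 1.06, 2.07, 2.88 and 3.84 of all genes. Without the 4OHT library of number 2 at 8 min 1 gene was called higher, Gata3, and 1 lower, Krt18, and without that of number 1 at 0 min 1 was called higher, Tfap2c.

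Within DMSO, 46.5% of all genes were called higher at 8 min and 1.88% lower, with a median gain of 1.25. None of the 7 genes was called by limma, and Gata3 (1.30; adjusted p = 0.081) and Tfap2c (1.28; adjusted p = 0.0771) had an unadjusted p under 0.05. Both were close to the median gene, and both passed with the library number as a block, as did Krt18 as lower at 8 min in 4OHT and in DMSO. Krt18 had −1.17, Gata2 −0.97, Krt7 −0.82, Krt8 −0.40 and Krt19 −0.13, at percentiles 3.41, 5.06, 7.15, 14.4 and 19.8. In DMSO cells the signal listed for Krt18 averaged 24.4 ± 10.9 at 8 min and 55.8 ± 22.9 at 0 min (SD, n = 2 each), and the libraries of the 2 times did not overlap. After joint scaling of all 8 libraries, which called 4618 genes lower in 4OHT and 4497 in DMSO, Krt8, Krt18, Krt19 and Gata2 were called lower at 8 min in 4OHT, and Krt7, Krt8, Krt18 and Gata2 in DMSO.

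**Figure D5:**
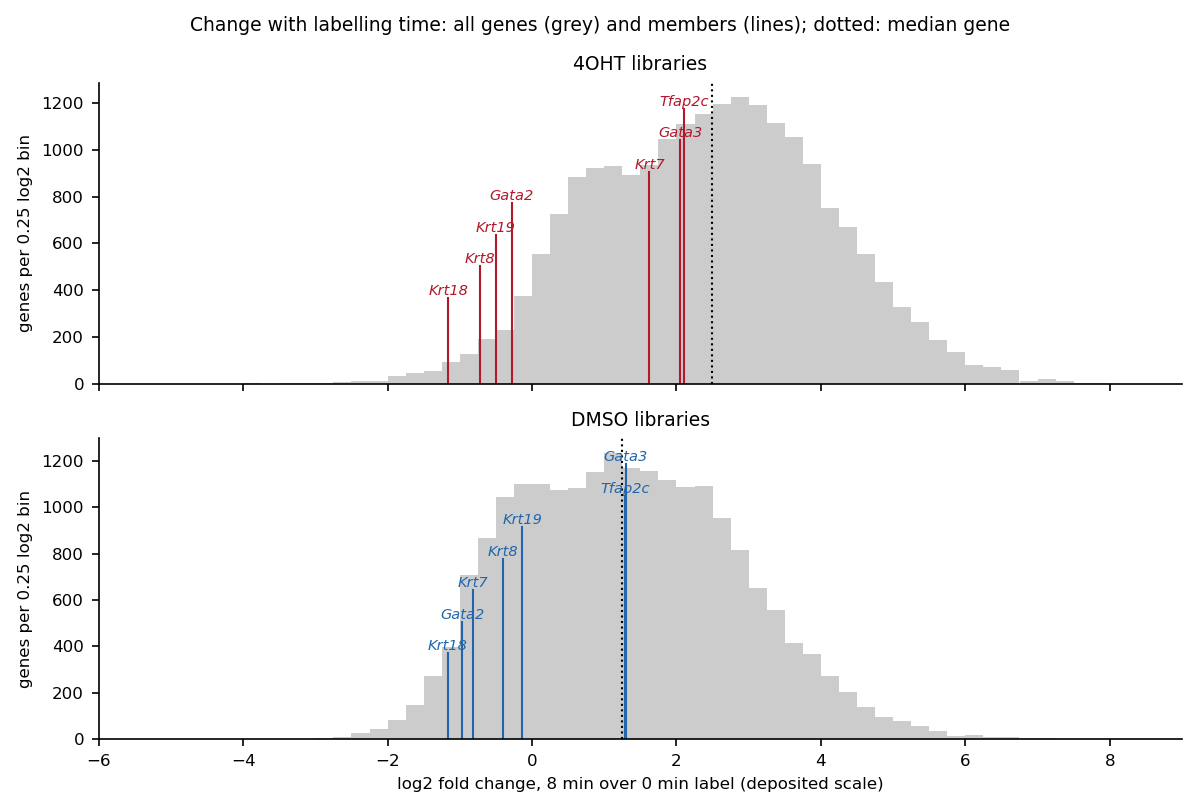
Log2 fold change of 8 over 0 min of label on the deposited scale, in 4OHT (upper) and DMSO libraries (lower), for all genes tested (grey, genes per bin) and the 7 genes (lines), with the median gene dotted. Krt8, Krt18, Krt19 and Gata2 lie at the left of both distributions, Gata3 and Tfap2c near the median in DMSO, and Krt7 left in DMSO and nearer the median in 4OHT.

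Averaged over 2 libraries, the order of the 4 groups on the deposited scale differed between the genes. For Tfap2c it was 4OHT at 8 min (52.0), DMSO at 8 min (28.2), 4OHT at 0 min (10.9) and DMSO at 0 min (10.8), where the 2 groups at 0 min overlapped and the others did not. For Gata3 it was 4OHT at 8 min (37.6), 4OHT at 0 min (10.3), DMSO at 8 min (10.2) and DMSO at 0 min (3.51), the middle pair overlapping. For Krt7 it was 4OHT at 8 min (31.4), 4OHT at 0 min (10.7), DMSO at 0 min (8.65) and DMSO at 8 min (4.20), and only the highest group stood apart from its neighbour. For Krt8, Krt18 and Krt19 the highest mean was that of 4OHT at 0 min (38.5, 64.2 and 41.0), and every neighbouring pair of groups overlapped. Joint scaling of all 8 libraries changed these orders. Krt7 in 4OHT at 8 min (10.2) then stood below DMSO (17.2) and 4OHT (14.8) at 0 min, with overlap. Gata3 in 4OHT at 8 min (12.5) came below 4OHT at 0 min (13.7), with overlap. Tfap2c in 4OHT at 8 min (16.9) had the lowest mean, overlapping 4OHT at 0 min (17.7).

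To compare levels between genes, the deposited value was divided by the annotated gene span in kilobases. In 4OHT at 8 min the mean level per kilobase was 8.11 ± 4.76 for Krt18, 6.09 ± 3.72 for Krt19, 4.02 ± 1.55 for Tfap2c, 3.76 ± 3.25 for Krt8 and 2.04 ± 0.722 for Krt7 (SD, n = 2). In DMSO at 8 min it was 6.91 ± 3.23 for Krt19, 6.40 ± 2.86 for Krt18, 2.31 ± 0.891 for Krt8, 2.18 ± 0.568 for Tfap2c and 0.273 ± 0.130 for Krt7. Krt18 and Krt19, both short genes, were thus the highest per kilobase in either group, though not apart from each other given their SD. Elf5 was the lowest, at 0.0246 ± 0.0168 in 4OHT and 0.0199 ± 0.00102 in DMSO. Without labelling time the means per kilobase were 16.8 in 4OHT and 14.6 in DMSO for Krt18, and 8.02 and 7.67 for Krt19. Krt8 had 5.04 and 3.10 there, so these keratins were higher per kilobase at 0 min than at 8 min in both treatments. Tfap2c was lower at 0 min, at 0.842 and 0.834. The 8 min levels of these keratins are thus not above the signal retained without label. Spans hold introns, and which part of a gene was counted is not given in the sources used here.

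Likeness between profiles was measured as the root-mean-square distance between centred log2(value + 1) profiles over the 8 libraries after joint scaling, which also share depth and label. Krt8 and Krt18 were 0.40 apart, Krt8 and Krt19 0.43 and Krt18 and Krt19 0.50, whereas Krt7 was 1.06 from Krt8, 1.24 from Krt18 and 1.23 from Krt19. The median distance to all genes was 1.43 for Krt8, 1.69 for Krt18, 1.44 for Krt19 and 1.09 for Krt7. Krt18 ranked 100 among the genes nearest to Krt8, and Krt8 ranked 104 among those nearest to Krt18. The 3 nearest genes were Lrfn4 (0.24), Abi3bp (0.26) and Gm28153 (0.26) for Krt8, Pla2g4c-ps (0.18), AC154290.1 (0.19) and Gm5514 (0.20) for Krt18, and Pgk1-rs7 (0.19), C130071C03Rik (0.19) and Gm5537 (0.20) for Krt19. Of these 9 genes, 3 carry symbols annotated as pseudogenes, Pla2g4c-ps, Pgk1-rs7 and Gm5537, while Gm28153, AC154290.1 and Gm5514 had no annotated class. The share of pseudogenes among all genes was not counted. For Krt7 they were Trim34a (0.17), AC154573.2 (0.27) and Gm43555 (0.28).

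Among 18 other trophoblast genes in the table, 13 passed the minimum, and 5 were called higher and 2 lower in 4OHT at 8 min after scaling. Those higher were Id2, a helix-loop-helix inhibitor (1.05; adjusted p = 7.83e-06), the Hippo pathway coactivators Yap1 (0.62; adjusted p = 0.000173) and Wwtr1 (0.74; adjusted p = 0.000378), the homeobox factor Msx2 and Gcm1, the factor of the branching labyrinth. Those lower were Tead4, the DNA-binding partner of Yap1 that acts above Cdx2 (−1.0; adjusted p = 0.0033), and the imprinted placental gene Peg10 (−0.73; adjusted p = 0.000404). Tead4 had 24.4 and 16.2 scaled counts in 4OHT, against 34.1 and 49.3 in DMSO, without overlap. On the deposited scale Msx2 had at most 4.41 and Gcm1 at most 7.32 in any DMSO library. Neither could thus reach the minimum without 4OHT libraries, so that both being higher rather than lower was largely fixed by it. The median of the 13 was 0.09, close to the 0.03 of all genes.

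Of the keratin partners and junction genes, 16 of 18 in the table passed, with 3 higher and 5 lower at 8 min after scaling. The shares over all genes were 20.1% higher and 15.4% lower. The desmosome genes Dsg2 (−1.22; adjusted p = 4.62e-07) and Dsp (−0.67; adjusted p = 0.00269), which anchor keratin filaments at the membrane, the tight junction claudins Cldn7 (−1.14; adjusted p = 0.00121) and Cldn6, and the adhesion molecule Epcam were lower. The plaque protein Jup (0.45; adjusted p = 0.0038), the tight junction genes Ocln (0.66; adjusted p = 0.00383) and Tjp1 (0.34; adjusted p = 0.0174) were higher. Plec, the cytolinker that binds keratins, had −0.03 (adjusted p = 0.873), and E-cadherin, Cdh1, had 0.07 (adjusted p = 0.618). The list's median was −0.14. Dsp, like Krt8 and Krt18, had values below 0 for 8 against 0 min, −0.80 in 4OHT and −1.15 in DMSO, and Dsg2 had 0.31 and 0.28.

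Keratins outside the 4 simple ones were mostly below the minimum. Of 33 other keratin entries, 4 passed, counting Krt8-ps, with 1 higher and 2 lower at 8 min after scaling. Among all genes tested, 20.1% were higher and 15.4% lower. Krt12, a corneal keratin, was higher after scaling (1.18; adjusted p = 0.0131), Krt10, a keratin of upper epidermis, was lower (−0.45; adjusted p = 0.0195), and Krt222 had −0.30 (adjusted p = 0.311). The 8 against 0 min change of Krt10 was 4.18 in 4OHT and 3.49 in DMSO, above the median gene in both, whereas Krt8, Krt18 and Krt19 were below it.

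Markers of other cell types moved in the same comparison, and their part in the keratin results was not tested. Over all genes, 20.1% were called higher and 15.4% lower after scaling. Of the fibroblast and feeder markers, 5 of 11 passed the minimum and 4 of these were lower after scaling, Fn1 (−0.51; adjusted p = 0.000408), Vim (−0.63; adjusted p = 0.00379), Col1a1 (−1.02; adjusted p = 0.00962) and Pdgfrb, with a summed scaled level over the list of 1004 to 1030 in 4OHT and 1462 to 1496 in DMSO. Of the primitive endoderm markers, 7 of 10 passed and 3 were higher, Lamb1 (1.62; adjusted p = 8.33e-09), Lama1 (1.07; adjusted p = 8.53e-05) and Dab2 (0.73; adjusted p = 0.0251), with a summed scaled level of 506 to 576 in 4OHT and 248 to 275 in DMSO. Of the 2-cell-like markers, 3 of 7 passed and all 3 were higher, Zscan4d (3.42), Zscan4c (2.98) and Zscan4f (2.94), near-identical copies whose counts are uncertain, with a summed scaled level of 237 to 259 in 4OHT and 23.8 to 24.0 in DMSO. On the deposited scale the 7 summed to 340 to 498 in 4OHT, against 11.7 to 18.2 in DMSO at 8 min. These 3 could thus not all reach the minimum without 4OHT libraries, so that all 3 being higher was largely fixed by it. Of the 10 stem cell markers, Sox2 (0.46; adjusted p = 0.00311) was higher, Nanog (−0.98; adjusted p = 9.06e-06) and Dppa5a (−0.45; adjusted p = 0.0167) were lower, and 7 did not pass. No marker in these 4 lists was at 0 in all 8 libraries. The summed scaled level of the stem cell markers was 5195 to 5438 in 4OHT and 5575 to 5803 in DMSO.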

How the data were processed

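The authors deposited 1 table of normalised signal for 8 libraries, with 38971 entries, of which 37797 were taken as genes and the rest as repeats, structural RNAs and spike-ins. The submitters' processing notes name STAR 2.7, Bowtie2, bcl2fastq and the genome build mm10 but give no roles. The deposited signal of each library was read counts over 1 common divisor, between 8.10 and 29.5, and 100% of values came within 0.01 of a whole read when multiplied back. What the divisor stands for, the strand counted and how multi-mapping reads were assigned are not given in the sources used here. Of recovered gene counts of 20 or more reads, 71.9% to 75.6% were even numbers at 8 min and 83.9% to 87.5% at 0 min, and reads are not independent molecules.

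Columns were assigned to groups by treatment and time, and a column without 4OHT in its name was taken as DMSO. Values were analysed as log2(value + 1) with limma 3.58.1 in R 4.3.3 (lmFit, trended eBayes, two-sided), for genes of at least 10 in at least 2 libraries, with Benjamini-Hochberg adjustment over 20660 genes at 0.05. Fits on the deposited scale used all 8 libraries. Scaled fits used the 4 libraries of 1 labelling time after median-ratio scaling over genes above 0 in all 4. Alternatives were a pseudocount of 5, no minimum, joint scaling of all 8 libraries, quantile normalization, a block for the library number, the 4 libraries alone, fits without each library in turn, and on recovered reads DESeq2 1.42.0 and edgeR's quasi-likelihood test (4.0.16). The scripts were tested on simulated data. The genes and lists were chosen with earlier results of these data known. All 10 genes are named, with Ythdc1, genes that overlap a member or share its symbol, the 3 nearest profiles of each keratin, and up to 3 genes of smallest p in each direction from each list; a count of 5 or fewer is named in full, which adds genes chosen after their values were seen. Positions and promoters are from RefSeq for GRCm38.p6, and 27329 entry names matched its symbols.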

Additional observations from a re-analysis of the deposited data

How the results depend on the processing

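Only 2 libraries stood behind each group, 3 of the 10 genes lay below the minimum for testing, and time may be confounded with cell line, so fits that leave out a library assume that the lone sample varies like the other groups. The library numbers were not taken to pair the samples, since titles and column names differ on what a number stands for and deviations of same-numbered libraries correlated at 0.02 to 0.16 in 5 of 6 pairs of groups and at 0.46 between 4OHT and DMSO at 0 min. A replicate block on the number gave 1 gene higher for the difference of effects (Krt7), 1 lower for 8 against 0 min in 4OHT (Krt18), and 2 higher and 1 lower in DMSO (Gata3 and Tfap2c; Krt18), and changed no other count of calls among the 7 genes. Over all genes it called 17149 higher at 8 min on the deposited scale, against 11721 without it, and 6410 for the difference, against 79.

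Krt7, Krt18 and Krt19 kept their direction and their calls at 8 min after scaling in the alternatives to that fit except the one without a minimum, where 0 genes were higher and 0 lower in the table and among the 7. Joint scaling of all 8 libraries kept their direction and called none of them (adjusted p = 0.43, 0.371 and 0.31). Counts over all genes lay within 1.5 times of 4154 and 3191 with quantile normalization, edgeR (3715 higher and 3381 lower) and DESeq2 (3718 and 3414). On the deposited scale at 8 min the fit without a minimum called 5794 genes higher and 1 of the 7. Joint scaling of all 8 libraries called 2 genes higher and 20 lower, and 0 of the 7, and turned Krt8 (−0.96), Krt18 (−1.12), Gata2 (−0.45) and Tfap2c (−0.60) negative. At 0 min it gave Krt7 −0.075, Krt18 −0.031, Krt19 −0.16, Gata2 −0.10 and Tfap2c −0.26, and for the difference of effects Krt18 −1.09, Gata2 −0.35, Gata3 −0.43 and Tfap2c −0.33. For 8 against 0 min in 4OHT it called 0 of the 7 higher and 4 lower, with Krt7 at −0.43 and Tfap2c at −0.016, and in DMSO it called 4 lower. Joint scaling removes the common shift, and the cause of these turns was not tested. The 0 min scaled change of Krt8 was −0.13 when summed with Krt8-ps. A pseudocount of 5 raised the genes called for the difference to 498.

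Leaving out 1 library at a time gave these ranges. At 8 min on the deposited scale, 0 to 2 of the 7 were higher, with 189 to 14273 over all genes, Krt8 lay between −0.57 and 1.39, Krt18 between −0.34 and 0.89 and Krt19 between −0.88 and 0.40. After scaling, 2 to 4 of the 7 were lower. At 0 min on the deposited scale Krt7 lay between −0.57 and 0.98, Krt18 between −0.16 and 0.68, Krt19 between −0.39 and 0.64 and Gata2 between −0.59 and 0.98. After scaling at 0 min Krt7 lay between −0.82 and 0.65, Krt8 between −0.081 and 0.96, Krt18 between −0.58 and 0.50, Krt19 between −0.87 and 0.54, Gata2 between −0.46 and 0.27 and Tfap2c between −0.65 and 0.13. For the difference 0 to 1 of the 7 were higher, Krt8 lay between −1.30 and 0.66, Krt18 between −0.60 and 0.63, Krt19 between −1.01 and 0.28, Gata2 between −0.10 and 1.47 and Gata3 between −0.21 and 1.73. For 8 against 0 min in 4OHT 1 to 3 were higher and 0 to 1 lower, with Krt8 between −1.69 and 0.26, Krt19 between −1.14 and 0.14 and Gata2 between −1.06 and 0.50. In DMSO 0 to 1 were higher, with Krt8 between −0.80 and 0.0066 and Krt19 between −0.65 and 0.38. The cause of these changes was not tested.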

Other observations

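The annotated genes next to the keratins and factors were taken as the nearest 2 on each side, a choice made after the data were seen. Beside the chromosome 15 keratins, Krt78, which ends 87 bases from Krt8, had at most 0.669 in any library, and Krt87, which starts 3684 bases after Krt7, had 2.48 and 3.09 in 4OHT, against 0 and 0 in DMSO at 8 min. Eif4b, a translation factor gene 41747 bases after Krt18, had 1564 and 2446 in 4OHT, against 591 and 992 in DMSO at 8 min, and its scaled change was −0.09 (adjusted p = 0.532). Krt15, beside Krt19 in the type I region, had 10.6 and 6.18 in 4OHT, against 2.71 and 3.74 in DMSO at 8 min, below the minimum for testing.

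Around the GATA factors, Dnajb8 (1.42; adjusted p = 0.00296) and Eefsec (0.61; adjusted p = 0.00032), which follow Gata2, and Taf3, which follows Gata3 (0.42; adjusted p = 0.0186), were higher in 4OHT at 8 min after scaling. Rpn1, which precedes Gata2, was also tested and was not called (0.23, adjusted p = 0.0975). Over all genes, 20.1% were called higher on that scale. Dnajb8 had at most 7.73 in any DMSO library on the deposited scale. It could thus not reach the minimum for testing without 4OHT libraries, so that its being higher rather than lower was largely fixed by it. Gata2 itself had −0.44 and did not pass the test.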
